A study of Mus musculus with 3 samples.

Results

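The genes described here build, load and feed the DNA replication fork. They are 38 genes for origin recognition and firing, the GINS complex, the replicative polymerases and primase, the sliding clamp PCNA and its loader, the single-strand binding protein RPA, Okazaki fragment processing, nucleotide supply, uracil removal, chromatin assembly and histone mRNA. They were followed in primary epidermal keratinocytes of RASSF9-/- and WT mice on Affymetrix Mouse Genome 430 2.0 arrays. A gene counted as measured where at least 1 probe set was annotated with its symbol and no other, and its brightest such probe set over the 3 arrays was read. In this way 37 of the 38 genes were measured among 18193 genes on the array, and 36 of them were among the 11089 genes bright enough to be tested. Chaf1a was not measured by this rule, and Tyms was measured but too dim to test.

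RASSF9-/- cells came from 2 neonatal ICR mice homozygous for a transgene insertion, and WT cells came from 1 neonatal ICR mouse, with 1 culture plate and 1 array for each. The mutation arose in a single line made with the Epstein-Barr virus LMP1 transgene, whose insertion deleted an intronic segment of RASSF9 next to its first exon, so RASSF9-/- cells also carry that transgene and WT cells do not. Both genotypes were grown without serum in supplemented keratinocyte medium low in calcium. The sample labels give 48 h of culture for RASSF9-/- and 24 h for WT, whereas the methods give the same culture time for all samples. If the labels hold, genotype cannot be told apart from time in culture. Because there is 1 WT array, the spread behind every test came from the RASSF9-/- pair, and WT mice were assumed to vary as these do.

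The arrays had median signals of 99.0 and 81.7 in RASSF9-/- and 90.8 in WT, all scaled to a trimmed mean of 500. A signal was counted as background where it was under 78.4, the highest reading among 27 Bacillus subtilis control probe sets, and a fold against background is given as a lower bound. The Rassf9 probe set read 59.6 and 120.2 in RASSF9-/- cells, against 478 in WT cells, at least 4.93-fold lower, with a limma adjusted p of 0.530. An intronic deletion is not itself read by probes to the transcript, so this signal does not check the deletion. All 10 keratinocyte markers, among them Krt5 and Krt14, were above background on all 3 arrays. Their summed signals were 143030.3 and 170431 in RASSF9-/- and 175136 in WT. By gene, 2 of the 10 were higher on both RASSF9-/- arrays, 5 were lower on both and 3 were split. Trp63 was lower by more than 2-fold on both, with 1459.9 and 1543 in RASSF9-/- cells, against 3239 in WT cells (limma adjusted p = 0.689). All 8 melanocyte markers were also above background, with sums of 25346 and 35634 in RASSF9-/- and 29747 in WT, so the cultures held melanocyte transcripts in both genotypes. Fibroblast markers summed to 1454 and 1131 in RASSF9-/- and 1857 in WT, with 6 of 8 above background on every array. Immune cell markers summed to 2409 and 2904 in RASSF9-/- and 1379.9 in WT, with Ptprc and Cd207 in background on all arrays. Within that list the lysozyme gene Lyz2 read 786 and 638 in RASSF9-/- cells, against 9.60, in background, in WT cells, and was called higher (limma adjusted p = 0.0359). Endothelial markers summed to 388 and 426 in RASSF9-/- and 336 in WT, with Pecam1 and Cdh5 in background. Merkel cell markers summed to 31054 and 16283 in RASSF9-/- and 15009.7 in WT, nearly all of it from the simple keratins Krt8 and Krt18, while Krt20, Atoh1 and Isl1 were in background. The part of other cell types in the results below was not tested. In RNA from a whole culture, more cells in S phase and more of these transcripts per cell cannot be told apart.

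DNA replication starts where the origin recognition complex loads the MCM helicase, which the CDC7-DBF4 kinase, GINS and further factors then activate. Polymerase alpha with primase lays down primers, polymerases epsilon and delta extend the leading and lagging strands behind the PCNA clamp, and FEN1 and DNA ligase I join the lagging-strand pieces. Ribonucleotide reductase, thymidylate synthase and thymidine kinase provide the deoxynucleotides, and many of these genes are known E2F targets that are transcribed as cells leave G1. In epidermis the dividing keratinocytes lie in the basal layer, and low calcium keeps cultured keratinocytes in a proliferative state.

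On both RASSF9-/- arrays, 33 of the 37 measured genes had higher signals than in WT, whereas this held for 33.6% of all 11089 genes tested. The median log2 difference, RASSF9-/- minus WT, was 0.57 on RASSF9-/- array 1 and 0.89 on array 2 over the 36 tested genes, compared with 0.05 and -0.04 over all genes tested. The median of the fitted values was 0.69, and 0.67 with the 3 genes whose WT signal was in background at their lower bound. The exceptions were Gins3, Rfc4 and Rfc5, whose arrays lay on opposite sides of WT, and Tyms, which was in background on all 3 arrays. No gene of the group with signals above background was lower on both arrays, a state found in 32.7% of all genes tested. Both differences share the single WT array, so one WT value enters both.

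A difference of 2-fold or more on both RASSF9-/- arrays was reached by 7 genes, all in the higher direction, compared with 2.89% of all genes tested. Among those with WT above background, in order of the smaller of their 2 differences, these were Lig1, Pold1, Orc2, Tk1 and Orc1. Gins1 and Pola1 had WT signals in background, and their smaller log2 differences were at least 1.52 and 1.31. The last inside this limit was Orc1, with 1.01 as its smaller log2 difference, and the first outside it was Chaf1b, with 0.98. With the mean over all probe sets of a gene in place of the brightest one, 3 genes passed this limit, Gins1, Lig1 and Tk1. Lig1 and Tk1 have 1 probe set each, so the mean cannot change them. That of Gins1 takes in a probe set in background on all 3 arrays. No gene of the group was called by limma at an adjusted p under 0.05, a call given to 0.0812% of all genes tested in this direction. At an unadjusted limma p under 0.05, 6 of the 36 tested genes were higher and 0 were lower. The share of all genes tested that were higher was 3.11%. Gins1 and Pola1, with WT in background, were among the 6. The 95% interval of the difference held 0 for 30 of the 36, with 2 RASSF9-/- arrays and 1 WT array behind each value. After the same adjustment a t-test also called 0. The methods name t-tests for statistical significance in general, and for the arrays only the GeneSpring software.

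**Figure D1:**
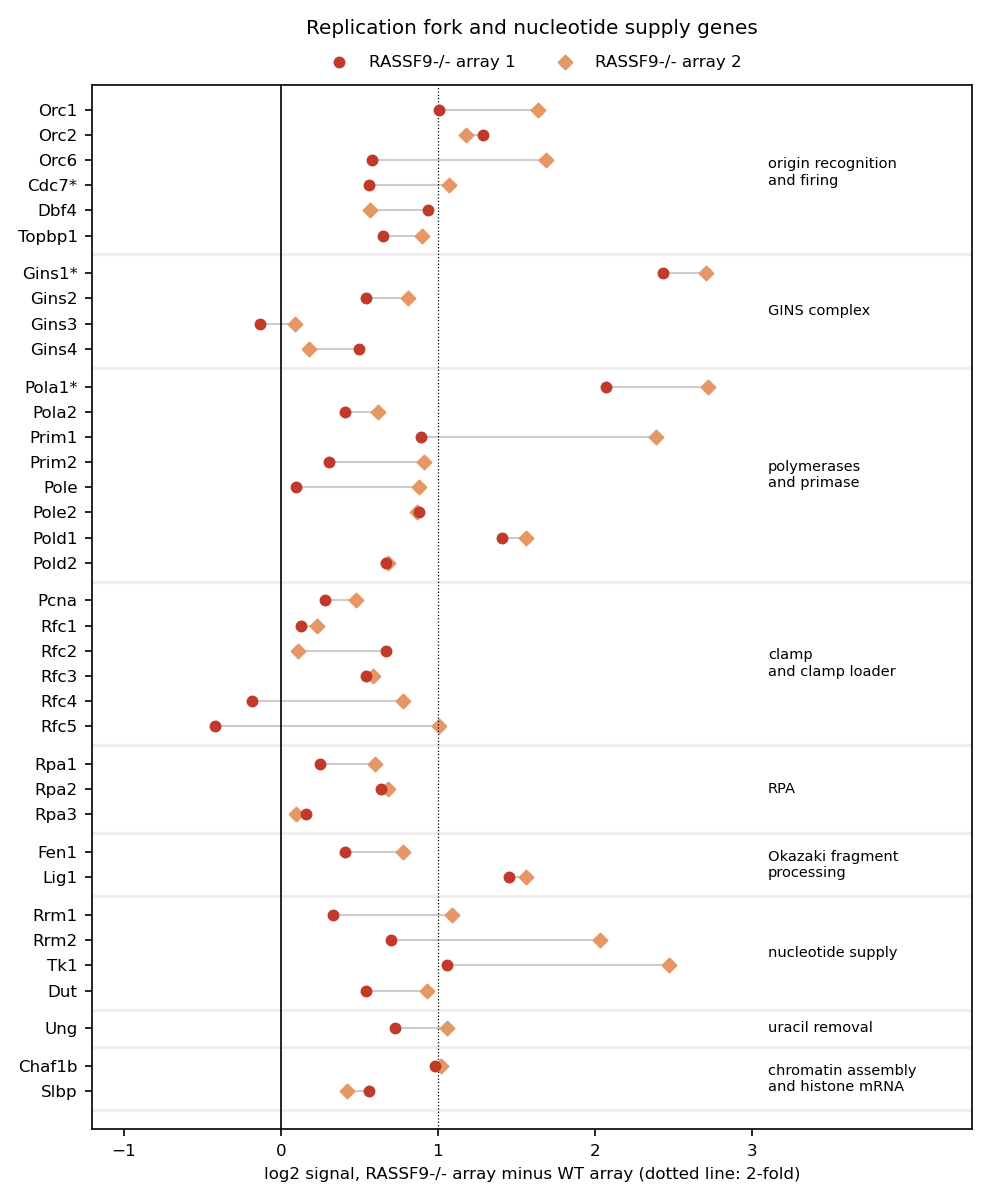
Log2 signal of each RASSF9-/- array minus the WT array (horizontal axis) for 36 genes, grouped by role, with circles for RASSF9-/- array 1 and diamonds for array 2. A star marks the 3 genes with a WT signal in background, for which the difference is not a measured fold; of the genes shown, all but Gins3, Rfc4 and Rfc5 lie to the right of 0 on both arrays.

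The plot of log2 differences by role shows the spread within each group. Over tested genes the median of the fitted log2 fold changes was 1.05 for nucleotide supply (4 genes) and for Okazaki fragment processing (2). It was 0.98 for origin recognition and firing (6), 0.89 for uracil removal (1) and 0.78 for polymerases and primase (8). Lower medians were 0.74 for chromatin assembly and histone mRNA (2), 0.51 for GINS (4), 0.43 for RPA (3) and 0.34 for the clamp and clamp loader (6). The order differed by array. Nucleotide supply had medians of 0.62 on array 1 and 1.56 on array 2, against 0.80 and 1.13 for origin recognition and firing. These groups hold few genes each, and the differences among groups were not tested.

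Because E2F sites are the shared promoter feature for which S-phase genes are known, RefSeq promoter windows (GRCm38.p6, 250 bases before to 50 after the start) were searched on both strands for TTTCCCGC, TTTGGCGC, TTTCGCGC and TTTGCCGC, with overlapping matches allowed. A window was found for 32 of the 38 genes, and 8 of these 32 (25%) held a match. The same search gave 436 of 9004 tested genes with a window (4.84%) and 2.6% of all genes in the table. By window, the shares were 21.1% for the group, 3.99% for tested genes and 2.26% for all windows. Base composition differed as well, with a median G+C content of 63.7% in windows of the group, 61% in those of tested genes and 52.7% in all windows. The genes with a match were Orc1, Topbp1, Gins3, Pola1, Pole2, Pold1, Rfc3 and Lig1. A match describes letters in the window and does not show a bound site. Stretches around the match are shown for 4 genes with signals 2-fold or more above WT on both arrays, Orc1, Pola1, Pold1 and Lig1, and for 2 that did not reach this, Gins3 and Rfc3. Each runs 5′ to 3′ along the gene with the match in capitals.
Orc1, chr4:108579401-108579460, plus strand: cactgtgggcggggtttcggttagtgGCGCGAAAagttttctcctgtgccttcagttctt
Pola1, chrX:93632260-93632319, minus strand: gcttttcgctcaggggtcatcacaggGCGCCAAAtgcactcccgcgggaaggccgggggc
Pold1, chr7:44548766-44548787, minus strand: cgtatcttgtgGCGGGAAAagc
Lig1, chr7:13278841-13278870, plus strand: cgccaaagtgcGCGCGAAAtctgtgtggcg
Gins3, chr8:95633492-95633551, plus strand: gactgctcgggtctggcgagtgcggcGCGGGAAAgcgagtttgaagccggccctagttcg
Rfc3, chr5:151651179-151651244, minus strand: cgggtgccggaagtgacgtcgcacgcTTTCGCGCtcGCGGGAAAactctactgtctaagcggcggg
Rfc3 was the gene with 2 matches, one on each strand on either side of the start. The match of Pola1 begins 138 bases before the start and that of Orc1 27 bases before it, while those of Lig1 and Pold1 begin 26 and 39 bases after it.

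**Figure D2:**
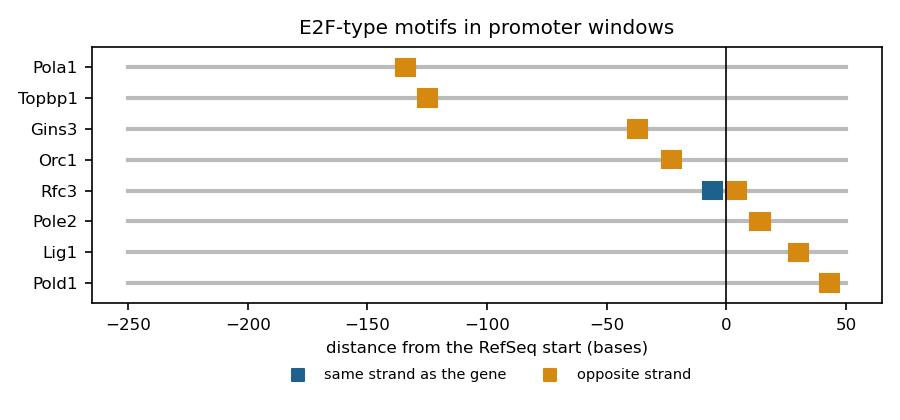
Position of E2F-type motif matches in the promoter windows of 8 genes, in bases from the RefSeq start (horizontal axis, negative before the start), with the strand of the match in colour. All matches but 1 of the 2 in Rfc3 lie on the strand opposite to the gene.

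Origin recognition and firing genes were higher on both RASSF9-/- arrays in all 6 cases. Orc1, the largest subunit of the origin recognition complex and an ATPase, had signals of 228 and 352 in RASSF9-/- cells, against 113 in WT cells. Orc2, another core subunit, had 783 and 727 in RASSF9-/- cells, against 321 in WT cells. Both RASSF9-/- values lay more than 2-fold above WT for each gene, and the fitted log2 fold change was 1.32 ± 0.58 (SE) for Orc1 and 1.23 ± 0.43 for Orc2, with limma adjusted p of 0.929 and 0.770. All 3 probe sets of Orc2 were higher on both arrays, as was the second one of Orc1, at 179.6 and 164 in RASSF9-/- cells and 146 in WT cells. Only the brightest one of each gene reached 2-fold on both. The other Orc2 probe sets had log2 differences of 0.96 and 0.99, and of 0.12 and 0.47. With the mean of probe sets the log2 fold change was 0.78 for Orc1 and 0.83 for Orc2.

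Orc6, the smallest subunit of the complex, had 377 and 812 in RASSF9-/- cells, against 252 in WT cells, so the RASSF9-/- arrays differed more from each other (1.11 log2) than array 1 did from WT (0.58). The origin recognition subunits outside the group, Orc3, Orc4 and Orc5, had log2 fold changes of 0.01, 0.08 and 0.28, and Orc3 and Orc5 lay on opposite sides of WT on the 2 RASSF9-/- arrays. The subunits of this complex spanned 1.16 on array 1 and 1.87 on array 2 on the log2 scale.

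Cdc7, the kinase that phosphorylates MCM to fire origins, was dim, with 91.7 and 131 in RASSF9-/- cells, against 62.2 in WT cells. The WT value was in background and gave a fold of at least 1.40. Its activating subunit Dbf4 had 1616 and 1249 in RASSF9-/- cells, against 839.7 in WT cells. Topbp1, a scaffold needed for origin firing and for ATR activation, had 1349 and 1601 in RASSF9-/- cells, against 859 in WT cells. Dbf4 and Topbp1 were higher on both arrays by less than 2-fold, with limma adjusted p of 1.000 and 0.988, and a second probe set of Topbp1 was in background on all arrays.

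GINS, which joins CDC45 and MCM to form the active helicase, was uneven among its 4 subunits. Gins1 had 225 and 274 in RASSF9-/- cells, against 41.8 in WT cells. The WT signal was in background, so the fold was at least 3.17, and the fitted log2 fold change of 2.57 (95% interval 1.13 to 4.01, limma adjusted p = 0.388) is no bound. Gins2 had 344 and 413 in RASSF9-/- cells, against 236 in WT cells. Gins4 had 1373 and 1099.7 in RASSF9-/- cells, against 974 in WT cells. Gins2 and Gins4 were thus above WT on both arrays, though by less than 2-fold on these probe sets. A dimmer second probe set of Gins2 was more than 2-fold higher on both arrays. It had 256 and 212 in RASSF9-/- cells, against 96.9 in WT cells, so the size for Gins2 depends on the probe set.

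Gins3 had 135 and 158 in RASSF9-/- cells, against 148 in WT cells, with WT between the RASSF9-/- values. Its log2 fold change was -0.02 with a 95% interval of -1.44 to 1.39, which leaves a wide range of differences possible. The second Gins3 probe set, at 104 and 172 in RASSF9-/- cells and 106 in WT cells, also lay on opposite sides of WT. By contrast, Gins1 was above WT by at least 1.52 and 1.81 on the log2 scale on the 2 arrays.

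Polymerase and primase genes were higher on both RASSF9-/- arrays in all 8 cases by the brightest probe set. Pola1, the catalytic subunit of polymerase alpha that extends RNA primers, had 195 and 305 in RASSF9-/- cells, against 46.3 in WT cells. The WT signal was in background, and the fold was at least 3.11, with a limma adjusted p of 0.513. Its partner Pola2 had 250.3 and 291 in RASSF9-/- cells, against 189 in WT cells. Pola1 thus stood well above WT on both arrays, and Pola2 by a log2 difference of 0.41 and 0.62.

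Prim1, the catalytic subunit of primase, had 318 and 898 in RASSF9-/- cells, against 172 in WT cells. The large primase subunit Prim2 had 234 and 357 in RASSF9-/- cells, against 189 in WT cells. Both were above WT on both arrays, but for Prim1 the RASSF9-/- arrays differed by 1.50 on the log2 scale, and a dimmer second probe set of Prim1 showed the same order, with 134 and 779.9 in RASSF9-/- cells and 114 in WT cells. A second probe set of Prim2 was lower on both arrays, with 117 and 104 in RASSF9-/- cells, against 135 in WT cells, so the direction for Prim2 depends on the probe set.

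Pold1, the catalytic subunit of lagging-strand polymerase delta, had 308 and 341 in RASSF9-/- cells, against 116 in WT cells. The difference of 1.49 ± 0.53 (log2, SE, limma adjusted p = 0.772) came from a probe set that the array's naming marks as open to cross-hybridization, as it does those read for Fen1 and Rrm2. The other Pold1 probe set had 178 and 193 in RASSF9-/- cells, against 213 in WT cells, and was lower on both arrays, so the direction for Pold1 depends on the probe set, and the mean of both gave 0.64. Pold2, the second subunit of the core enzyme, had 587 and 594 in RASSF9-/- cells, against 370.2 in WT cells, a difference of 0.67 and 0.68 on the 2 arrays. Pold4, the smallest subunit and outside the group, had 496 and 495 in RASSF9-/- cells, against 1149 in WT cells. It was the subunit with a signal lower by more than 2-fold on both arrays (limma adjusted p = 0.770). Leaving Pold1 aside because its probe sets disagree, the subunits of polymerase delta spanned 1.89 on the log2 scale between Pold4 and Pold2.

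Pole, the catalytic subunit of leading-strand polymerase epsilon, had 268 and 460.2 in RASSF9-/- cells, against 249 in WT cells. Its array 1 value was within 0.10 of WT on the log2 scale and array 2 was 0.88 above it. Pole2, the second subunit, had 591 and 588 in RASSF9-/- cells, against 321 in WT cells, with the RASSF9-/- arrays nearly equal. The small histone-fold subunits Pole3 and Pole4, outside the group, had log2 fold changes of 0.25 and 0.91.

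**Figure D3:**
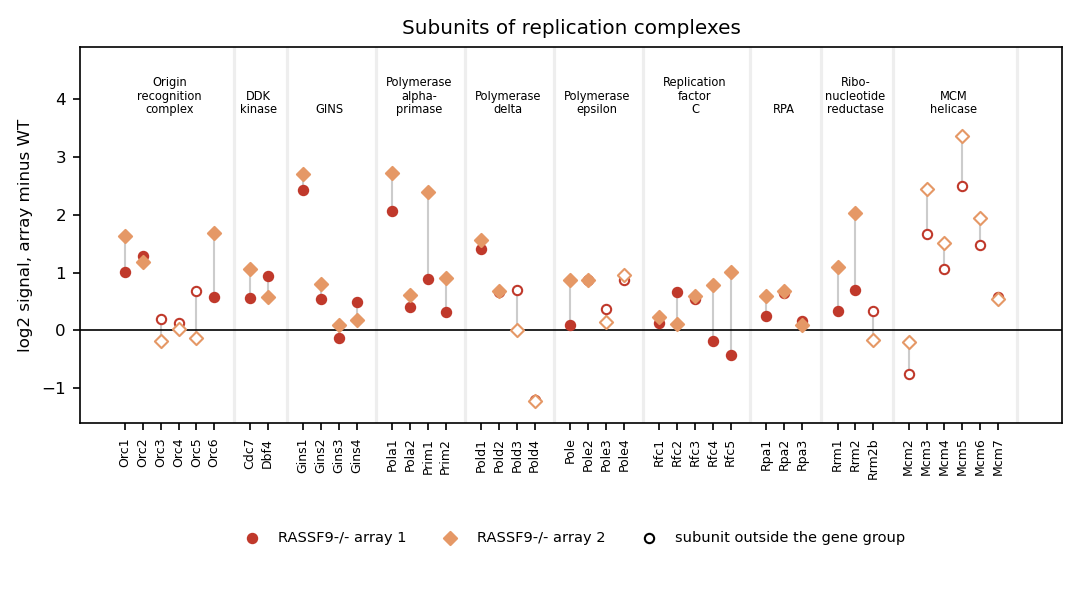
Log2 signal of each RASSF9-/- array minus WT (vertical axis) for the subunits of 10 replication complexes, with circles for RASSF9-/- array 1, diamonds for array 2 and open symbols for subunits outside the gene group. Subunits of one complex do not share one difference, as for Gins1 and Gins3, Pold2 and Pold4, or Mcm5 and Mcm2; the points of Cdc7, Gins1 and Pola1 rest on a WT signal in background.

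The clamp and its loader had median log2 differences of 0.20 on array 1 and 0.54 on array 2, by the brightest probe set of each gene. Pcna, the sliding clamp that tethers polymerases to DNA, had 8628 and 9964 in RASSF9-/- cells, against 7126 in WT cells. It was above WT on both arrays by 0.28 and 0.48 on the log2 scale, and the 95% interval of its fold change was -0.39 to 1.15, with a limma adjusted p of 1.000. Rfc1, the large subunit of the loader, had 656 and 701 in RASSF9-/- cells, against 599 in WT cells. Rfc2 had 1073 and 729 in RASSF9-/- cells, against 676 in WT cells. Rfc3 had 317 and 329 in RASSF9-/- cells, against 218 in WT cells. By these probe sets the 3 loader subunits were above WT on both arrays, Rfc1 and, on array 2, Rfc2 only slightly. For Rfc1 and Rfc2 the size depends on the probe set. A slightly dimmer Rfc1 probe set had 715 and 643 in RASSF9-/- cells, against 424 in WT cells. Its log2 differences were 0.75 and 0.6, while another Rfc1 probe set was split, at -0.56 and 0.01. A dimmer Rfc2 probe set had log2 differences of 1.31 and 0.59, and another lay near WT, at 0.0 and -0.05.

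Rfc4 had 230.2 and 447 in RASSF9-/- cells, against 261 in WT cells. Rfc5 had 147 and 398 in RASSF9-/- cells, against 197 in WT cells. For both subunits the WT value lay between the RASSF9-/- values, with array 1 below and array 2 above it. The other Rfc4 probe set did not show this, with 212 and 321 in RASSF9-/- cells, against 109 in WT cells. The 5 loader subunits spanned 1.09 on the log2 scale on array 1 and 0.90 on array 2, with Rfc2 and Rfc5 at opposite ends on each.

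RPA coats single-stranded DNA behind the helicase. Its large subunit Rpa1 had 3321 and 4232 in RASSF9-/- cells, against 2788 in WT cells. Rpa2 had 326 and 334 in RASSF9-/- cells, against 208 in WT cells. The small subunit Rpa3 had 824 and 789 in RASSF9-/- cells, against 737 in WT cells. All were higher on both arrays, with log2 fold changes of 0.43, 0.66 and 0.13 and a limma adjusted p of 1.000 each.

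Lig1, the DNA ligase that seals Okazaki fragments, had 626 and 674 in RASSF9-/- cells, against 229 in WT cells. The RASSF9-/- arrays lay close together and well above WT, the log2 fold change was 1.50 ± 0.45 (SE, 95% interval 0.41 to 2.60), and the limma adjusted p was 0.646. Among genes whose WT signal was above background, Lig1 had the largest of the smaller log2 differences, at 1.45. Fen1, the flap endonuclease that removes primer ends before ligation, had 1247 and 1605 in RASSF9-/- cells, against 936 in WT cells, and its second probe set was also higher on both arrays, at 664 and 800.0 in RASSF9-/- cells and 400.4 in WT cells.

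For Rrm2 and Tk1 the RASSF9-/- arrays stood apart from each other. Rrm2, the small subunit of ribonucleotide reductase made in S phase, had 1749 and 4407 in RASSF9-/- cells, against 1080.2 in WT cells. Tk1, the cytosolic thymidine kinase, had 269.8 and 718 in RASSF9-/- cells, against 129.6 in WT cells. Both were above WT on both arrays, with log2 differences of 0.70 and 2.03 for Rrm2 and of 1.06 and 2.47 for Tk1, and the limma adjusted p was 0.911 and 0.870. All 3 Rrm2 probe sets were higher on both arrays, and each had array 2 above array 1.

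The large ribonucleotide reductase subunit Rrm1 had 921 and 1566 in RASSF9-/- cells, against 735 in WT cells. Dut, the dUTPase that keeps uracil out of DNA, had 367 and 484 in RASSF9-/- cells, against 253 in WT cells. Both were above WT on both arrays, while Rrm2b, the p53-induced small subunit outside the group, had 750.4 and 537 in RASSF9-/- cells, against 598 in WT cells. Tyms, thymidylate synthase, had 10.3 and 25.4 in RASSF9-/- cells, against 37.8 in WT cells, all in background, so no fold is given. A further probe set that names Tyms together with a pseudogene was not read.

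**Figure D4:**
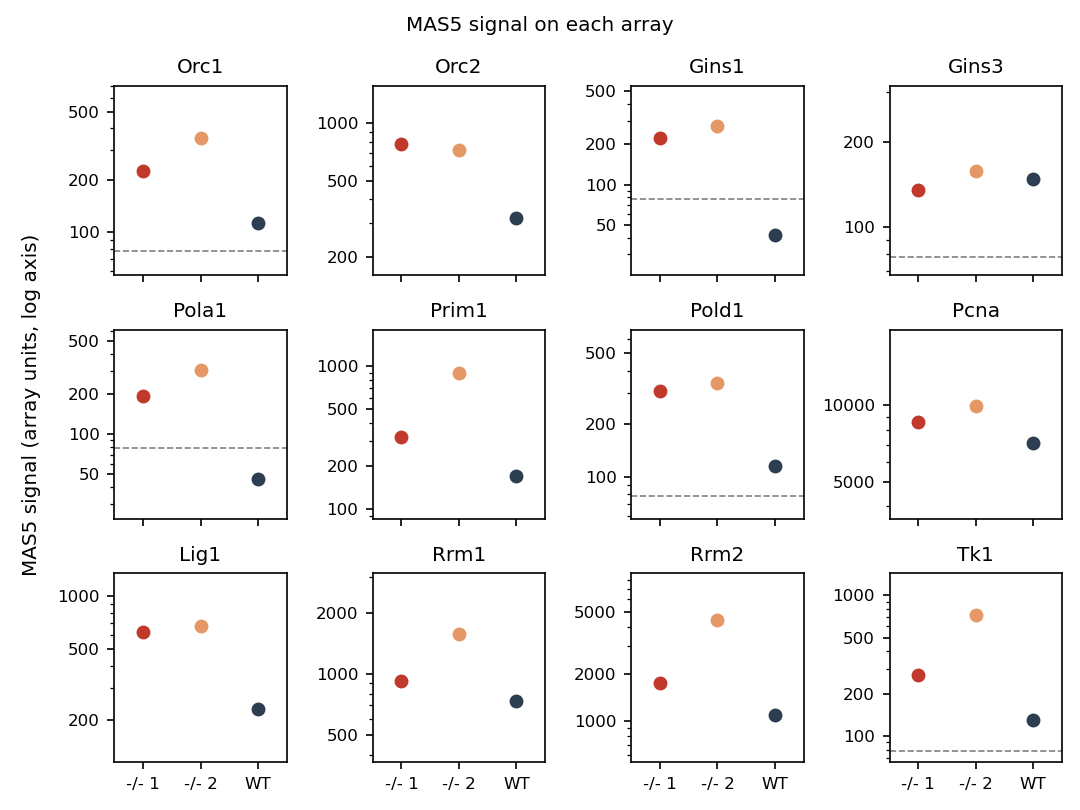
MAS5 signal (log axis, array units) on RASSF9-/- array 1, RASSF9-/- array 2 and the WT array for 12 genes, with the background limit of 78.4 as a dashed line where it falls in range. Both RASSF9-/- points lie above WT in all panels but Gins3, the WT points of Gins1 and Pola1 lie under the line, and array 2 exceeds array 1 by more than 1 on the log2 scale for Prim1, Rrm2 and Tk1.

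Ung, the uracil-DNA glycosylase that removes uracil at forks, had 207 and 261 in RASSF9-/- cells, against 125 in WT cells. Chaf1b, a subunit of the CAF-1 histone chaperone that works with PCNA, had 308 and 315 in RASSF9-/- cells, against 156 in WT cells. Slbp, which binds the stem-loop of replication-dependent histone mRNAs, had 2353 and 2135 in RASSF9-/- cells, against 1598 in WT cells. All were above WT on both arrays, and for Chaf1b the arrays differed by 0.03 on the log2 scale.

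Array 2 was above array 1 for 80.6% of the 36 tested genes, compared with 45.1% of all genes tested, with a median gap of 0.26 on the log2 scale compared with -0.07 over all genes tested. The gap reached 1 for Orc6, Prim1, Rfc5, Rrm2 and Tk1. Array 2 was also the higher one for 8 of 8 melanocyte markers, with a median gap of 0.49, and for 8 of 10 keratinocyte markers, and their part in this gap was not tested. Array 2 was higher for 14 of 25 further fork genes and 14 of 28 further nucleotide supply genes. It was also higher for 7 of 9 MCM helicase and licensing genes, with a median gap of 0.56, and for 11 of 11 measured mitosis genes, with 1.25. Array 1 was the higher one for Orc2, Dbf4, Gins4, Pole2, Rfc2, Rpa3 and Slbp. Counted singly, array 1 had 7 genes at least 2-fold above WT and array 2 had 15, compared with 5.83% and 6.87% of all genes tested, and the 8 found on array 2 only were Orc6, Cdc7, Prim1, Rfc5, Rrm1, Rrm2, Ung and Chaf1b. The WT array and RASSF9-/- array 1 share a date in their file names and array 2 has another, so array 2 and that date cannot be told apart. The actin 3′ to 5′ ratio, a measure of RNA integrity, was 1.41 and 1.37 in RASSF9-/- and 1.43 in WT.

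**Figure D5:**
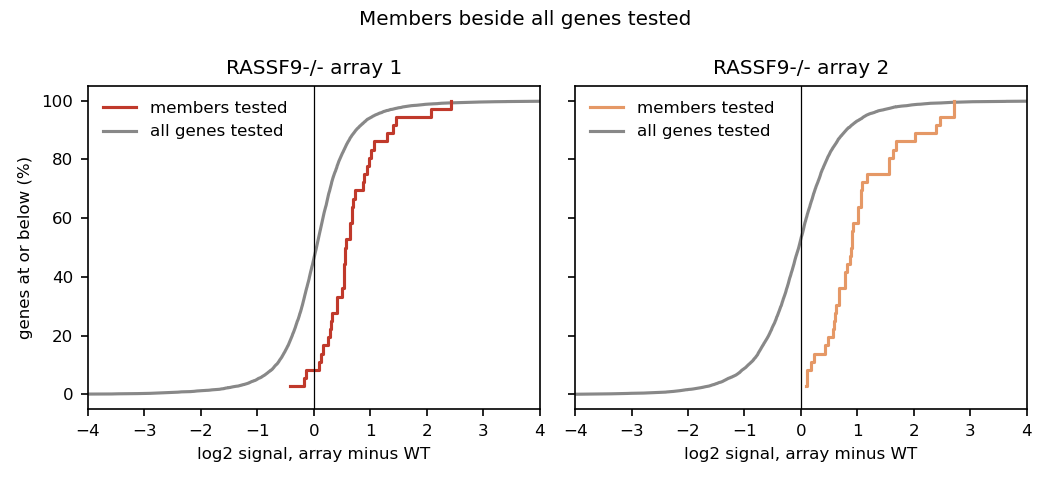
Cumulative share of genes (vertical axis, percent) at or below each log2 difference of a RASSF9-/- array from WT (horizontal axis), for the 36 tested genes of the group and for all 11089 genes tested. On each array the curve of the group lies to the right of that of all genes, with medians over the 36 of 0.57 on array 1 and 0.89 on array 2.

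Of the 36 tested genes, Cdc7, Gins1 and Pola1 passed the brightness filter only through their RASSF9-/- signals. Without these 3, 30 of 34 measured genes were higher on both arrays and 5 were at least 2-fold higher on both. Over the 33 that were tested, the median fitted log2 fold change was 0.67. At an unadjusted limma p under 0.05, 4 of these 33 were higher, compared with 3.11% of all genes tested. Several probe sets were present for 27 of the 37 genes. Of the 21 further probe sets bright enough to pass the filter, from 17 genes, 16 were higher on both arrays, 2 were lower on both (Pold1 and Prim2) and 3 were split. The 16 dimmer ones were higher on both arrays in 6 cases, lower in 4 and split in 6.

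Further genes of the same pathways were counted in the same way. Among 25 further fork genes that could be tested, 14 were higher on both RASSF9-/- arrays and 5 lower on both, with a median log2 fold change of 0.28. The shares over all genes tested were 33.6% and 32.7%. Clspn, the checkpoint mediator claspin, had 153 and 301 in RASSF9-/- cells, against 54.8 in WT cells. Dna2, a nuclease and helicase of Okazaki fragment processing, had 183 and 235 in RASSF9-/- cells, against 54.0 in WT cells. Both WT signals were in background, and the folds were at least 2.73 and 2.64. The lower ones included the RNase H2 subunits Rnaseh2b and Rnaseh2c, by less than 2-fold. The RNase H2 subunit Rnaseh2a was higher on both arrays, with 725 and 753 in RASSF9-/- cells, against 478 in WT cells. None of the 25 was called by limma. At an unadjusted limma p under 0.05, 3 were higher and 1 was lower, compared with 3.11% higher among all genes tested. The 3 higher ones were Clspn, Dna2 and Timeless, all with WT signals in background. They passed the brightness filter only through their RASSF9-/- signals.

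Of 28 further nucleotide supply genes, 19 were higher on both RASSF9-/- arrays, compared with 33.6% of all genes tested, and 1, Impdh1, was lower on both. Their median was 0.53, and limma called 0 of them. At an unadjusted limma p under 0.05, 8 were higher, compared with 3.11% of all genes tested. Dctd, the dCMP deaminase that provides dUMP to thymidylate synthase, had 468 and 449 in RASSF9-/- cells, against 119 in WT cells. Mthfd1, which supplies one-carbon folates, had 1282 and 1799 in RASSF9-/- cells, against 487 in WT cells. Both were above WT by more than 2-fold on both arrays, with limma adjusted p of 0.496 and 0.490, and Shmt1, Umps and Atic also passed 2-fold on both. These 5 of 28 compare with 2.89% of all genes tested.

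The MCM helicase and licensing genes were higher on both RASSF9-/- arrays in 8 of 9 cases, compared with 33.6% of all genes tested. Their median log2 fold change was 1.54, or 1.30 with Cdc6 at its lower bound. Limma called 0 of the 9, of which 7 were higher at an unadjusted p under 0.05, compared with 3.11% of all genes tested. Cdc6, with its WT signal in background, was among these 7. Mcm5 had 946 and 1713 in RASSF9-/- cells, against 167 in WT cells. Mcm2 was the exception, with 508 and 748 in RASSF9-/- cells, against 858 in WT cells. The 10 measured histone supply and nucleosome assembly genes gave 7 higher on both arrays, beside the same 33.6%, and a median of 0.21. All 11 measured mitosis genes were higher on both RASSF9-/- arrays, beside the same 33.6%, and array 2 was above array 1 for all 11. Over the 11, WT signals were in background in 9 cases, and the median log2 difference was 3.38 as measured and 1.59 with these at their lower bounds. Limma called 0 of the 10 that were tested, with a lowest adjusted p of 0.240. Of these 10, 8 had WT signals in background and passed the brightness filter only through their RASSF9-/- signals. The inhibitor gene Cdkn1a had 15193 and 18707 in RASSF9-/- cells, against 21681 in WT cells (limma adjusted p = 1.000).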

How the data were processed

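The authors deposited 1 MAS5 signal intensity per probe set and array from Affymetrix Mouse Genome 430 2.0 arrays, linear and, by the values, scaled to a 2% trimmed mean of 500. The table held 45037 probe sets besides 64 controls. GEO's platform annotation, which can be old, gave 1 gene symbol to 34945 of them, several to 932 and none to 9160. For each gene the brightest probe set of 1 symbol by mean log2 signal was kept, and genes at or above the 50th percentile of mean log2 signal were tested, with no further normalization or pseudocount. RASSF9-/- (2 arrays) was compared with WT (1 array) by limma 3.58.1 in R 4.3.3, with lmFit and trended eBayes; p-values were two-sided and adjusted by Benjamini-Hochberg over the 11089 genes. There was 1 residual degree of freedom. A signal under 78.4 was treated as background, and a fold against it used that value as the floor for every array. The steps were tested on simulated data.

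The 38 genes, the role groups, the further pathway lists and the marker lists were chosen with earlier results of these data known. All 38 genes were named, together with their complex partners and, from each further list, genes with the largest smaller-of-2 difference. Promoters came from RefSeq (GRCm38.p6), and protein sequences were not used here. Alternatives covered scaling, filter, pseudocount, probe set choice, background, variance trend, a t-test and each RASSF9-/- array left out. The number of arrays limits the precision. Limma p-values rest on the spread between the 2 RASSF9-/- arrays, drawn by eBayes toward that of genes of like signal. Those 2 arrays also differ in file date.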

Additional observations from a re-analysis of the deposited data

How the results depend on the processing

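Limma called 0 of the replication fork and nucleotide supply genes under median scaling, quantile normalization, both other filters and a pseudocount of 32. The same held for the mean of probe sets, background raised to its limit and no intensity trend. The lowest limma adjusted p of each setting lay between 0.272 and 0.967. A t-test called 0 after adjustment. It put 6 at an unadjusted p under 0.05, for which no share of all genes was counted. With 1 degree of freedom it favours genes whose 2 RASSF9-/- arrays nearly coincide, so these need not be the 6 that limma gave. Of all genes, 9 were called in the reported fit and 0 with quantile normalization, background raised, no intensity trend or that t-test. The median log2 fold change over the 37 measured genes, 0.68 as deposited, ran between 0.62 and 0.73, and 29 to 33 genes were higher on both arrays. Genes at least 2-fold higher on both numbered 5 to 7, and 3 with the mean of probe sets. Without RASSF9-/- replicate 1 or 2 they numbered 15 and 7, with medians of 0.88 and 0.56, and no test was left. Median scaling moved the median of all genes to -0.08 on array 1 and 0.11 on array 2, from 0.05 and -0.04, and put array 2 above array 1 for 34 of 37 measured genes, against 30 as deposited.

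Of 248 values of single genes under alternatives that can move a fold change, 242 kept their direction. Many of these could not turn. For the 33 genes higher on both arrays, leaving out either array keeps the direction. With the same probe set, a pseudocount or raised background cannot reverse it either. The count is therefore no measure of how firm the directions are. Gins3 turned to 0.02 with quantile normalization and 0.15 with the mean of probe sets, and lay at 0.09 without replicate 1 and -0.13 without replicate 2. Topbp1 turned to -0.52 with the mean of probe sets, which takes in a probe set in background. Rfc4 lay at 0.78 without replicate 1 and -0.18 without replicate 2, and Rfc5 at 1.01 and -0.42. No paired analysis was possible because the samples come from different mice and the labels give the single WT sample no replicate number.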
